A study of Mus musculus with 2 samples.

Results

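The 32 genes described here encode the enzymes of glycolysis, the lactate dehydrogenases and the transporters that carry lactate, the pyruvate dehydrogenase step and its kinases, and the first steps of the pentose phosphate pathway. They were chosen by symbol, not by a measured value, and all 32 were found among the 43346 Ensembl genes of the deposited gene tables. The tissue was midbrain of B6NCrl mouse embryos at embryonic day 16.5, whose total RNA was sequenced. There is 1 group with 2 libraries, labelled as biological replicates 2 and 1, and each was made from a pool of healthy embryos of both sexes. The pool of replicate 2 held 37 embryos, the number is not given for replicate 1, and the labels give the same donor identifier for both. No treatment or mutation is labelled, and each difference between pools below is replicate 2 over replicate 1.

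Glycolysis splits glucose into pyruvate in the cytosol and yields ATP and NADH. Pyruvate is either reduced to lactate, which regenerates NAD+, or enters mitochondria and is oxidised by pyruvate dehydrogenase. Most steps can be carried out by several enzymes made from related genes, and which of these paralogs a cell uses differs between tissues. In the brain, glycolytic cells such as astrocytes are known to release lactate that neurons can take up, and proliferating progenitors are known for high glycolysis.

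Expected counts are the estimated reads assigned to features. Over all 69691 deposited entries, of which 43346 are Ensembl genes, they summed to 36576263 in replicate 2 and 31830355 in replicate 1. Levels are given in TPM, a transcript abundance corrected for transcript length, so that genes can be set beside each other. Values with ± are means and SD over the 2 libraries. With 1 group no test between conditions exists and no p-value is given. The libraries carried the neuronal genes a midbrain should have, with the tubulin Tubb3 at 1744 TPM in replicate 2 and 1816 TPM in replicate 1 and the growth cone protein Gap43 at 1661 and 1506 TPM in the same order. Since the tissue was not sorted, fewer cells of a type and less RNA per cell cannot be told apart.

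All 32 genes reached at least 1 TPM in both libraries, whereas 62.1% of all 21474 protein-coding genes did. At least 10 TPM in both was reached by 27 of 32, against 41.2% of protein-coding genes. At least 100 TPM in both was reached by 14 of 32, against 7.75% of protein-coding genes. Of the protein-coding genes that reached 1 TPM, 66.4% reached 10 TPM and 12.5% reached 100 TPM. The median over the 32 was 94.6 TPM in replicate 2 and 86.5 TPM in replicate 1, while the 13333 protein-coding genes of at least 1 TPM had medians of 20.0 and 20.5 TPM in the same order. In expected counts they ran from Eno1, with 39183 in replicate 2 and 32472 in replicate 1, to Hk2, with 118 and 100. Together the 32 genes held 0.850% of the TPM of all protein-coding genes in replicate 2 and 0.787% in replicate 1.

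**Figure D1:**
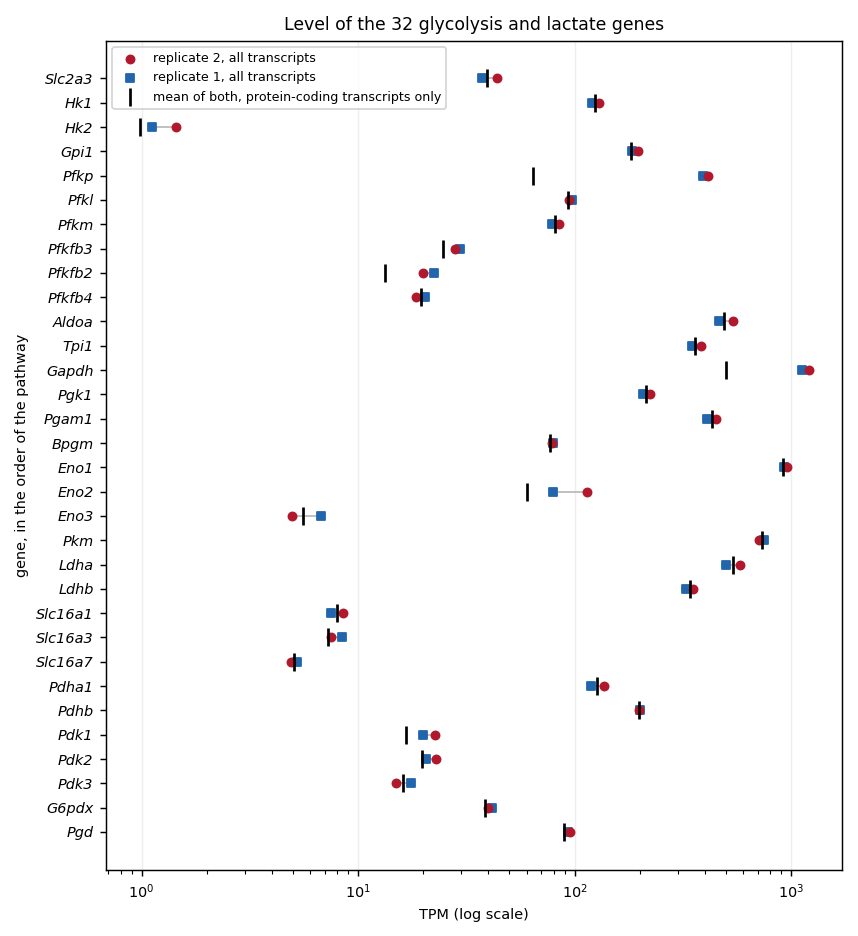
Level of each of the 32 genes in TPM on a log axis, with the genes in the order of the pathway. Red points are replicate 2, blue squares are replicate 1 and black ticks are the mean of both when only transcripts annotated as protein-coding are summed. The levels run from Hk2, at 1.45 and 1.12 TPM, to Gapdh, at 1209 and 1122 TPM, and the black tick of Pfkp lies far to the left of its points.

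Glucose enters cells through facilitative transporters, and hexokinase then traps it as glucose 6-phosphate. Slc2a3, the transporter GLUT3 known from neurons, had 43.6 TPM in replicate 2 and 37.3 TPM in replicate 1. Slc2a1, the transporter GLUT1 of the blood-brain barrier and glia, is not among the 32 and had 79.1 and 81.2 TPM. Slc2a3 was therefore the lower of the 2 in both libraries, with log2 ratios to Slc2a1 of -0.86 in replicate 2 and -1.12 in replicate 1. Hk1, the hexokinase bound to mitochondria in brain, had 129.8 TPM in replicate 2 and 120.6 TPM in replicate 1. Hk2, the hexokinase of muscle and of many growing cells, had 1.45 and 1.12 TPM and rested on 118 and 100 expected counts, whose exact 95% Poisson intervals are 97.7 to 141 and 81.4 to 122. Hk1 exceeded Hk2 by 6.62 ± 0.189 on the log2 scale, a 98.2-fold difference.

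The next steps isomerise the sugar phosphate and commit it to glycolysis. Gpi1, glucose 6-phosphate isomerase, had 196 TPM in replicate 2 and 184 TPM in replicate 1. Phosphofructokinase 1, the committed step, is a tetramer of platelet, liver and muscle subunits. Pfkp (ENSMUSG00000021196.9, chr13:6579768-6648777, minus strand), the platelet subunit, had 412 and 390 TPM. Pfkl, the liver subunit, had 93.8 TPM in replicate 2 and 96.8 TPM in replicate 1, and Pfkm, the muscle subunit, had 84.4 and 78.4 TPM. Over all transcripts Pfkp thus held 69.4% ± 0.542 of the family, and its log2 ratio was 2.07 ± 0.0857 over Pfkl and 2.30 ± 0.0206 over Pfkm. This order did not hold when only transcripts annotated as protein-coding were summed: Pfkp then had 64.8 and 64.0 TPM, below Pfkl at 92.0 and 94.4 and Pfkm at 84.4 and 78.4. The log2 ratio of Pfkp was then -0.53 over Pfkl and -0.34 over Pfkm.

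The PFKFB enzymes make and remove fructose 2,6-bisphosphate, the activator of phosphofructokinase 1. Pfkfb3, the form with the strongest kinase activity, had 28.1 TPM in replicate 2 and 29.5 TPM in replicate 1. Pfkfb2 had 20.1 and 22.4 TPM and Pfkfb4 had 18.6 and 20.4 TPM, and the ranges of these 2 overlap. Pfkfb3 was the highest in both libraries, with 39.1% ± 0.435 of the family. Pfkfb1, not among the 32, was lowest with 4.65 and 3.89 TPM.

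Aldolase splits the 6-carbon sugar, triose phosphate isomerase interconverts the products, and Gapdh makes the first NADH. Aldoa, the ubiquitous aldolase, had 538 TPM in replicate 2 and 465 TPM in replicate 1. Aldoc, the aldolase of astrocytes and some neurons and not among the 32, had 129 and 73.7 TPM, so that Aldoa was 5.13-fold higher and held 83.5% ± 3.99 of the family. Tpi1, triose phosphate isomerase, had 385 and 348 TPM. Gapdh was the highest of the 32 over all transcripts, at 1209 TPM in replicate 2 and 1122 TPM in replicate 1, and stood at rank 60 among protein-coding genes. Its protein-coding transcripts summed to 533 and 469 TPM, which puts it below Eno1, Pkm and Ldha.

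The payoff phase makes ATP from the 3-carbon acids. Pgk1, phosphoglycerate kinase, had 223 TPM in replicate 2 and 207 TPM in replicate 1, while its testis copy Pgk2 was at 0 expected counts in both. Pgam1, phosphoglycerate mutase, had 448 and 411 TPM, and Bpgm, which makes the 2,3-bisphosphoglycerate of red blood cells, had 78.6 and 79.7 TPM. Globin genes were abundant, with Hbb-bs at 3007 and 3216 TPM, and the part of blood in the level of Bpgm was not tested. Eno1, the general enolase, had 956 TPM in replicate 2 and 930 TPM in replicate 1. Eno2, the enolase of mature neurons, had 115 and 79.6 TPM, and Eno3, the muscle enolase, had 4.95 and 6.78 TPM. Eno1 held 90.1% ± 1.82 of the enolase TPM, Eno2 9.23% ± 2.00 and Eno3 0.563% ± 0.146. Of 6 skeletal muscle markers, which summed to 9.54 TPM in replicate 2 and 8.51 TPM in replicate 1, the actin Acta1 had 8.73 and 7.62 TPM, above Eno3, and the other 5, with the regulators Myod1 and Myog among them, were at or below 0.34 TPM. Their part in the level of Eno3 was not tested.

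Pkm (ENSMUSG00000032294.12, chr9:59656368-59679375), pyruvate kinase, had 713 TPM in replicate 2 and 751 TPM in replicate 1. Its transcripts include either of a pair of neighbouring exons, which give the M1 enzyme of differentiated tissue or the M2 enzyme of proliferating cells. Both exons have 167 bases in GENCODE M21, lie on the plus strand of chromosome 9 of GRCm38, and differ at 64 aligned bases, shown in capitals because they are what lets reads tell the forms apart. The M1 exon lies at chr9:59675029-59675195 and the M2 exon at chr9:59675568-59675734.
M1 exon: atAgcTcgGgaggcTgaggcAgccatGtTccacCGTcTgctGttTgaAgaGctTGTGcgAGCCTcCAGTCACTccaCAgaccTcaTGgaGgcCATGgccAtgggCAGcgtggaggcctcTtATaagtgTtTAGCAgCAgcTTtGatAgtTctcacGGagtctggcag
M2 exon: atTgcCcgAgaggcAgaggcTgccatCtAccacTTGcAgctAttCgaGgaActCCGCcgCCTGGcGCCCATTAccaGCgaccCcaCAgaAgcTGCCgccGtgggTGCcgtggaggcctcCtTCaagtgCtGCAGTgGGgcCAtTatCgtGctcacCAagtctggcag
The deposited tables hold 2 Pkm transcripts of 2432 bases each. Pkm-201, which carries the M2 exon, made up 27.9% of Pkm in replicate 2 and 32.7% in replicate 1, or 199 and 245 TPM. Pkm-202, which carries the M1 exon in the reference, made up the other 72.1% and 67.3%, or 514 and 506 TPM. The M1 form was thus the larger in both libraries, while the M2 form was lower in replicate 2 than in replicate 1, with a log2 ratio of TPM of -0.30 against 0.02 for the M1 form. The reference model of Pkm-202 is shorter than the deposited one, so the exon content of the deposited model is taken from its name.

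Lactate dehydrogenase is a tetramer of A subunits, which favour making lactate, and B subunits, which favour using it. Ldha (ENSMUSG00000063229.10, chr7:46841475-46855627, plus strand) had 584 TPM in replicate 2 and 503 TPM in replicate 1. Ldhb (ENSMUSG00000030246.7, chr6:142490249-142507957, minus strand) had 354 and 328 TPM. Ldha was the higher in both libraries and held 61.4% ± 1.25 of the family, and its log2 ratio to Ldhb was 0.67 ± 0.0764, a 1.59-fold difference.

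Promoters of the pair were searched for ACGTG and GCGTG, the core letters that hypoxia-inducible factors are known to bind. Both strands were searched, and the palindrome CACGTG counts once on each strand. The windows run from 250 bases before to 50 after a transcript start and come from the RefSeq promoter table of GRCm38.p6, with each match in capitals. Ldha has 2 windows in the table and Ldhb has 1. The first Ldha window, chr7:46845554-46845853 on the plus strand, has 7 matches, the most of the 46 windows found for the 32 genes, and is shown for that reason beside the Ldhb window, chr6:142507908-142508207 on the minus strand, which has 1. In the first Ldha window 2 CACGTG palindromes each give 2 of the 7 matches. Windows of Hk1 and Slc16a1 follow with 5 matches each. Separate sites were not counted, so the lead of the Ldha window holds for matches only. The other Ldha window, chr7:46846832-46847131, has 2 matches, both GCGTG.
Ldha promoter: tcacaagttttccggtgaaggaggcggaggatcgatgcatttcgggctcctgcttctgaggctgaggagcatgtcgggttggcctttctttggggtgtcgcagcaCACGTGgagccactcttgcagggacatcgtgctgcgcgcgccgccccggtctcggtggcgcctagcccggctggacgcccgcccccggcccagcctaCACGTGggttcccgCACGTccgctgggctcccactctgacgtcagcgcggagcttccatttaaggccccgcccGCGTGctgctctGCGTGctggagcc
Ldhb promoter: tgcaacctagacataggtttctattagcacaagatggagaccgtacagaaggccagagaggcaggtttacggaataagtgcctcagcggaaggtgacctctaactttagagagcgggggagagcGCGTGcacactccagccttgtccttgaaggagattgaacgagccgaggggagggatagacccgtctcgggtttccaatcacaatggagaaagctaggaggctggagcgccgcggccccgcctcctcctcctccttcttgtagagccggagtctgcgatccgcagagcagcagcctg
The table had 46 promoters for 30 of the 32 genes; Slc2a3 and Slc16a7 had no entry. ACGTG was present in 45.7% of these promoters, in 25.9% of 9300 promoters of other protein-coding genes of at least 10 TPM and in 19.6% of all 32851 promoters. GCGTG was present in 54.3%, 52.3% and 32.4% of the same 3 sets. Either was present in 76.1%, 63.8% and 43.8%. The median number of CpG was 20, 21 and 7, and several genes have more than 1 promoter, so these shares describe sequence and no binding was measured.

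Monocarboxylate transporters move lactate and pyruvate across the plasma membrane. Slc16a1, the transporter MCT1, had 8.53 TPM in replicate 2 and 7.48 TPM in replicate 1, and Slc16a3, the MCT4 of glycolytic cells, had 7.51 and 8.44 TPM. The order of this pair differed between libraries, with log2 ratios of 0.18 in replicate 2 and -0.17 in replicate 1. Slc16a7, the high-affinity MCT2 known from neurons, was lower at 4.91 and 5.22 TPM. All 3 were far below Bsg, the chaperone protein basigin that brings MCT1 and MCT4 to the membrane, at 764 and 714 TPM.

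Pyruvate dehydrogenase feeds pyruvate into the citric acid cycle. Pdha1, its alpha subunit, had 137 TPM in replicate 2 and 120 TPM in replicate 1, and Pdhb, its beta subunit, had 199 and 200.0 TPM. Although the subunits pair in the enzyme, Pdha1 was the lower in both libraries, by 1.56-fold. The kinases that switch the enzyme off were lower: Pdk2 had 22.9 and 20.6 TPM, Pdk1, a gene induced by low oxygen, had 22.8 and 20.0 TPM, and Pdk3 had 14.9 and 17.5 TPM. The log2 ratio of Pdk2 over Pdk1 was 0.01 in replicate 2 and 0.04 in replicate 1. Pdk4, the kinase of fasting and fat use and not among the 32, had 1.33 TPM in both libraries.

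The oxidative pentose phosphate pathway makes NADPH and ribose. G6pdx, the X-linked glucose 6-phosphate dehydrogenase, had 39.7 TPM in replicate 2 and 41.7 TPM in replicate 1. Pgd, 6-phosphogluconate dehydrogenase, had 95.3 and 93.3 TPM and was 2.32-fold higher.

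**Figure D2:**
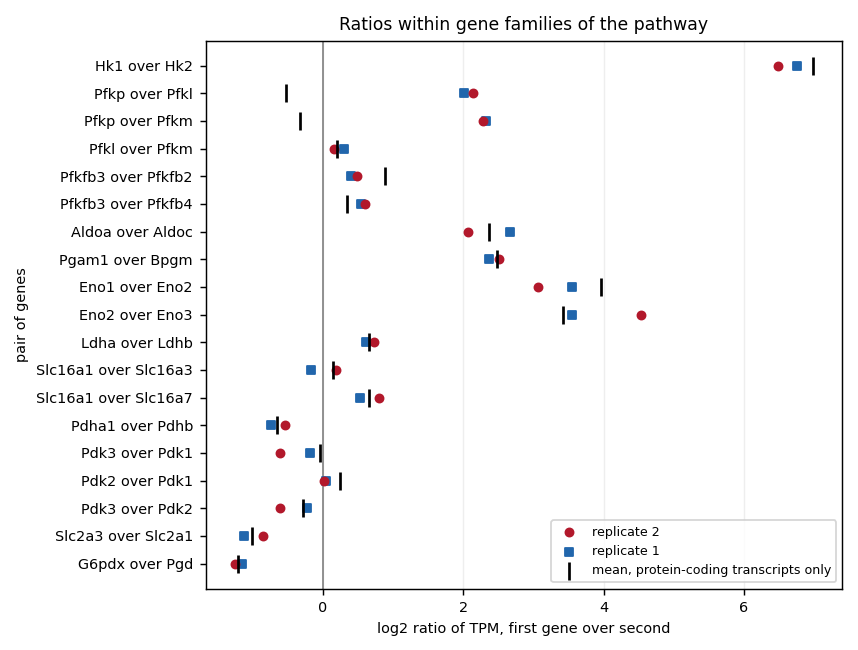
Log2 ratio of TPM for 19 pairs of genes, the first named over the second, with red points for replicate 2, blue squares for replicate 1 and black ticks for protein-coding transcripts alone. Hk1 over Hk2 is largest at 6.48 and 6.75, and the ticks of both Pfkp pairs lie left of 0, at -0.53 and -0.34, although their points lie right of it.

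In the order of mean TPM, some neighbours had ranges over the libraries that overlap. These are Ldha and Aldoa, Pgam1 and Pfkp, Tpi1 and Ldhb, Pdha1 and Hk1, Eno2 and Pfkl, Pfkl and Pgd, Pfkm and Bpgm, G6pdx and Slc2a3, the run Pdk2, Pdk1, Pfkfb2 and Pfkfb4, Slc16a1 and Slc16a3, and Eno3 and Slc16a7. In both libraries Ldha was above Aldoa, Pgam1 above Pfkp, Tpi1 above Ldhb, Pdk2 above Pdk1, Pfkfb2 above Pfkfb4 and Eno3 above Slc16a7. The other overlapping neighbours changed order between libraries and cannot be ranked. Of the 19 gene pairs compared by ratio, only Slc16a1 and Slc16a3 changed order between libraries. The first gene was higher in both libraries in 13, a count that depends on which gene was named first. Pdha1 with Pdhb and G6pdx with Pgd are pairs of partners in the pathway and not paralogs.

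The transcript tables hold 215 transcripts of the 32 genes. Of 28 genes with at least 2, the leading transcript was the same in both libraries in 25, and in 11 of these it had at least 90% of the TPM. By the mean share of both libraries the leading form was annotated as protein-coding for 30 of 32 genes, the exceptions being Gapdh and Pfkp, and in replicate 1 alone a non-coding form also led in Eno2. Non-coding transcripts took a median of 2.41% of a gene's TPM, and at least 10% in both libraries for 7 genes. Of the 24 genes with at least 10 TPM and at least 2 transcripts, 6 reached 10%, against 43.2% of 6765 protein-coding genes under the same rule. At least 50% was reached by 2 of the 24, against 9.48% of these genes.

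In Gapdh, Gapdh-208, a processed transcript of 483 bases, took 55.1% of TPM in replicate 2 and 57.6% in replicate 1. In expected counts it took 26.5% and 28.4%, and Gapdh-203, the coding transcript of 1420 bases, took 66.6% and 66.4%. TPM divides by length, so the short transcript weighs more in TPM than in counts. Of the 31-base words of Gapdh-208, 94.3% also occur in Gapdh-203, so most reads fit both.

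In Pfkp, the retained intron form Pfkp-210, of 702 bases at chr13:6598295-6602811, took 47.6% of TPM in replicate 2 and 48.1% in replicate 1. A second retained intron form, Pfkp-211, took 17.2% and 17.6%. Pfkp-201, which codes for the protein, took 13.8% and 14.7%. In expected counts the order differed, with 18.5% and 18.2% for Pfkp-210, 18.0% and 17.9% for Pfkp-211 and 23.0% and 23.7% for Pfkp-201. Another retained intron form, Pfkp-212, whose length differs between releases, had the largest share of expected counts, at 27.5% and 29.2%. It took 9.34% and 10.2% of TPM. Of the 31-base words of Pfkp-210, 34.1% also occur in Pfkp-201, and of those of Pfkp-211, 81.6% do. Non-coding forms took 83.9% ± 0.460 of Pfkp in all, and at least 80% in both libraries was seen in 1.86% of the 6765 genes.

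In Eno2, the coding Eno2-201 took 34.4% of TPM in replicate 2 and 24.4% in replicate 1, and the retained intron form Eno2-203 took 23.5% and 31.1%. The leading form therefore differed between libraries. Protein-coding Eno2 transcripts summed to 73.0 TPM in replicate 2 and 47.2 TPM in replicate 1. Smaller non-coding parts were found in Pfkfb2, with 36.8% ± 2.03, and in Pdk1, with 22.2% ± 6.47. For Hk2 the protein-coding transcripts alone summed to 0.970 and 0.990 TPM, below 1.

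**Figure D3:**
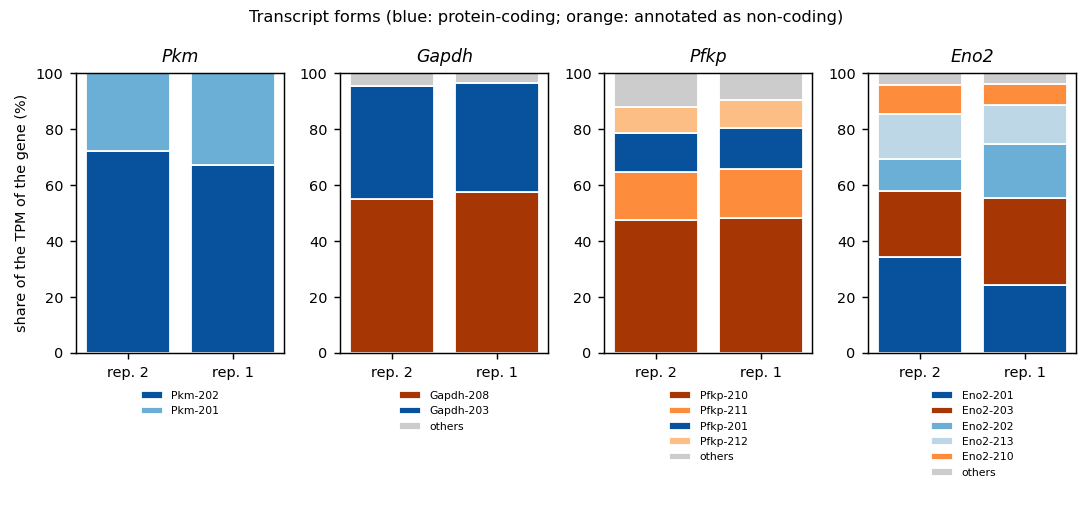
Share of each gene's TPM taken by its transcripts in replicate 2 and replicate 1, for forms of at least 5%, with blue for protein-coding, orange for non-coding and grey for the rest. Non-coding Gapdh-208 takes 55.1% and 57.6% of Gapdh, and the M1 form Pkm-202 takes 72.1% and 67.3% of Pkm.

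Glycolytic mRNAs are known for many processed pseudogenes, whose reads can fit both. The share of 31-base words that also occur in other genes was highest for Pgk1, at 54.7%, and was 37.1% for Pgam1, 34.7% for Pkm, 33.0% for Ldhb, 28.5% for Eno1 and 28.1% for Gapdh. Pseudogenes of Pgk1 had 33.1 TPM in replicate 2 and 27.9 TPM in replicate 1, or 14.8% and 13.5% of the level of Pgk1. Pseudogenes of Pgam1 had 46.0 and 56.9 TPM. A pseudogene of Eno1 had 23.7 TPM in replicate 2 and 25.7 TPM in replicate 1. That of Ldhb had 2.78 and 3.32 TPM, and those of Pkm had only 0.08 and 0.04 TPM. The 117 Gapdh pseudogenes in the table summed to 97.7 and 87.1 TPM, or 8.08% and 7.76% of Gapdh. How the reads were divided among these copies was not tested. This bears on genes that share words, such as Pgk1, Pgam1, Gapdh and Eno1. It does not bear on Bpgm, Eno3, Slc16a1, Slc16a3, Pdk2 and Pdk3, which share no word with another gene. Some members also overlap genes on the other strand, such as Pfkp with Pitrm1 (25.7 and 25.2 TPM) and G6pdx with Ikbkg (13.6 and 16.5 TPM), and whether counting used strand is not stated.

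The pools were then set against each other by the ratio of scaled expected counts, replicate 2 over replicate 1. None of the 32 genes was past 1.5-fold in either direction, and 3.46% of 14412 genes were, 2.13% higher and 1.33% lower. At 1.3-fold, a limit chosen after the values were seen, 1 of 32 was past it, against 9.68% of all genes. It was higher in replicate 2, against 5.84% of all genes, and 0 of 32 were lower, against 3.84%. That gene was Eno2, with 4853 expected counts in replicate 2 and 2964 in replicate 1, a log2 ratio of 0.53 or 1.44-fold. With protein-coding transcripts alone its ratio of TPM was 1.55-fold. Of the 32 genes 23 were higher in replicate 2, or 71.9%, against 51.9% of all genes. Their median log2 ratio was 0.10, against 0.01 for all genes, and their range was from -0.20 for Pdk3 to 0.53 for Eno2. By the ratio of deposited TPM 20 of the 32 were higher, and with protein-coding transcripts alone 19 were, with a median of 0.04. The 5th and 95th percentiles of all genes were -0.33 and 0.41, so every member but Eno2 lay within them.

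Next to Eno2, Aldoa and Ldha had the highest ratios, each at a log2 of 0.26. Pfkfb3 was at 0.01 and Pkm at -0.04. A pair of low genes moved with the unit, since Eno3 was at -0.14 by counts and -0.45 by TPM and Hk2 at 0.06 by counts and 0.37 by TPM.

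Cell type markers also differed between the pools. For comparison, 51.9% of all 14412 genes were higher in replicate 2, with a median log2 ratio of 0.01. Of 8 astrocyte markers compared 7 were higher in replicate 2, with a median log2 ratio of 0.52. The exception was Slc1a2, at -0.27, with 12.1 TPM in replicate 2 and 16.4 TPM in replicate 1. Over 10 astrocyte genes the summed level was 1114 TPM in replicate 2 and 686 TPM in replicate 1. Apoe, at a log2 ratio of 0.96, was the largest part of both sums. The defining Gfap, at 1.02 and 0.23 TPM, was too low in counts to be among the 8. All 7 dividing-cell markers were lower, with a median of -0.41 and sums of 180 and 224 TPM. Of 6 neuronal markers 4 were higher, with a median of 0.10 and sums of 5181 and 4993 TPM. The largest ratio among them was 0.52 for Snap25, at 204 and 147 TPM, while Tubb3 was at -0.02 and Elavl4 at -0.09. Of 7 red blood cell markers 6 were lower, with a median of -0.17 and sums of 11290 and 12792 TPM. Of 6 radial glia markers 2 were higher, with a median of -0.33, and of 6 endothelial markers 2 were higher, with a median of -0.13. Of 7 markers of the oligodendrocyte lineage 6 were higher, with a median of 0.25, and all 5 microglia markers were higher, with a median of 0.22. Of 9 genes induced by low oxygen 8 were higher, with a median of 0.23. Among these 8 is Slc2a1, the glucose transporter described above, at 0.003 by counts and -0.04 by deposited TPM. The part of any of these in the ratios of the glycolysis genes, including Eno2, Ldha and the M2 form of Pkm, was not tested.

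**Figure D4:**
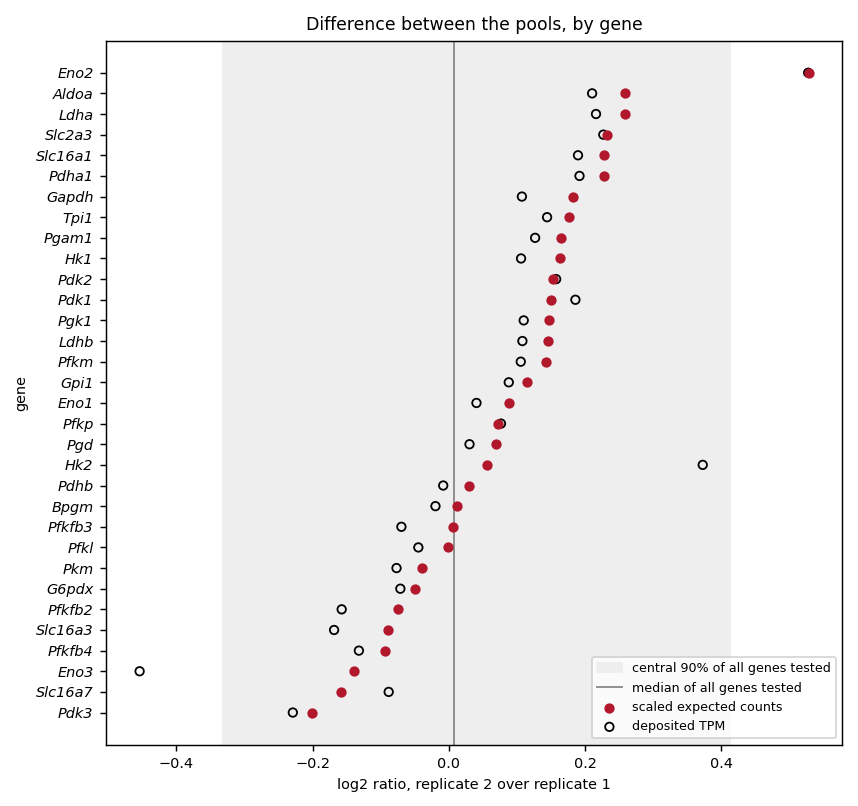
Log2 ratio of replicate 2 over replicate 1 for each of the 32 genes, by scaled expected counts (red) and by deposited TPM (open), with the grey band from the 5th to the 95th percentile of 14412 genes at -0.33 and 0.41. Eno2, at 0.53, is the only red point outside the band.

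On the genome, 7 of the 32 genes lie on chromosome 6 and 4 on the X chromosome, Pgk1, Pdha1, G6pdx and Pdk3. Eno2 (chr6:124760053-124769673), Tpi1 (chr6:124810586-124814296) and Gapdh (chr6:125161715-125166467) are all on the minus strand of GRCm38. Eno2 and Tpi1 are 40.9 kb apart with 1 protein-coding gene between them, and Tpi1 and Gapdh are 347.4 kb apart with 17 between them. Their log2 ratios between pools were 0.53 for Eno2, 0.18 for Tpi1 and 0.18 for Gapdh.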

How the data were processed

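Total RNA longer than 200 nucleotides, 10 ng a library with spike-ins per the labels, was sequenced in 2 libraries. Per the deposited readme, reads were aligned to mm10 and quantified against GENCODE M4; neither aligner nor quantifier is named in the sources used here, and the columns have RSEM's names. Per the file headers, the deposited expected count is the estimated number of reads per feature, where a read that fits several features is split between them. The deposited TPM is per effective length and scaled to one total, spike-ins included. The deposited isoform percent is a share of the TPM of its gene. Other deposited columns used are posterior mean TPM and the bounds of its credibility interval, whose level is not stated. Strandedness is not given in the sources used here.

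Symbols, transcript types, coordinates and 31-base words came from GENCODE M21 on GRCm38, the assembly of mm10, joined by Ensembl identifier without version; 884 identifiers without a symbol held 0.179% of expected counts in replicate 2 and 0.194% in replicate 1. Of 215 transcripts 202 have the same length in both releases, and only these are described, except Pkm-202 and Pfkp-212. Pool ratios used expected counts rounded for edgeR 4.0.16 TMM scaling, with 0.5 added, for genes of a mean of at least 50 expected counts. DESeq2 1.42.0 size factors, 5 added counts and the ratio of TPM were alternatives. Pseudogenes were counted if they share at least 100 words with the gene, a limit chosen after values were seen. Poisson intervals are at 95%, use rounded expected counts and reflect counting error alone. They leave out variation between libraries and the division of reads among features. No molecular identifiers mark independent molecules, so duplicate reads of a molecule cannot be told apart. The calculation of the ratio was checked on simulated counts. R 4.3.3 ran both of these tools. Tables were joined in pandas 2.3.3 under Python 3.11.15, Poisson intervals came from scipy 1.17.1, and figures from matplotlib 3.10.9.

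The 32 genes, the 19 pairs, the lists and the markers were chosen with earlier results of these data known. The rule for named genes takes all 32 members and other pathway genes of a pair or step. Replicates vary by pool, and their spread may be in part technical. No condition is compared, so no test between conditions was run.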

Additional observations from a re-analysis of the deposited data

How the results depend on the processing

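No paired analysis was possible because there is 1 group. Leaving out a library kept all 32 genes detected, moved the median TPM within 86.5 to 94.6 and the number of pairs with the first gene higher within 13 to 14; it cannot be done for the ratio between pools, which needs both. Summing only transcripts annotated as protein-coding lowered the median TPM to 79.1, against 90.5, and left 31 genes detected, without Hk2. It turned the log2 ratio of Pfkp to -0.53 over Pfkl and -0.34 over Pfkm, and it moved the level of 4 genes by over 1.5 times. Under it 1 gene, Eno2, was past 1.5-fold between the pools, as 1 was at 1.3-fold, against 0 in the main values; these settings were chosen after the data were seen, apart from the coding median and pair ratios. No member changed sign with DESeq2 size factors, while 3 changed sign with the ratio of TPM, Pfkfb3, Bpgm and Pdhb, all within 0.10 of 0 on the log2 scale. Of the 32, 23 were higher in replicate 2, and 19 to 23 under the alternatives, all chosen for this count after the data were seen. The median log2 ratio of the 32 was 0.10 under these and 0.04 with coding transcripts alone. With posterior mean TPM, 2 pair ratios changed sign. With 2 libraries, spread is known only roughly.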

Other observations

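Around the pathway, 44 further genes were looked at, of which 31 reached 1 TPM in both libraries, 22 reached 10 and 8 reached 100. The shares of all protein-coding genes at these levels were 62.1%, 41.2% and 7.75%. The mitochondrial pyruvate carrier was well covered, with Mpc1 at 283 TPM in replicate 2 and 249 TPM in replicate 1 and Mpc2 at 181 and 178 TPM. Of the malate-aspartate shuttle, which passes NADH electrons into mitochondria, Mdh1 had 492 and 460 TPM and Got1 had 94.1 and 90.3 TPM. The glycerol phosphate shuttle was lower, with Gpd2 at 22.8 and 21.7 TPM and Gpd1 at 1.41 and 1.17 TPM. In the non-oxidative pentose phosphate branch, Taldo1 had 237 and 254 TPM and Tkt had 151 and 150 TPM.

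Genes of glucose synthesis ranged widely. G6pc3, a widely expressed glucose 6-phosphatase, had 36.1 TPM in replicate 2 and 33.0 TPM in replicate 1. Pck1, the cytosolic phosphoenolpyruvate carboxykinase, had 0 expected counts in both libraries, and Fbp1, fructose bisphosphatase, had 1 in each; its paralog Fbp2 had 0.98 and 0.71 TPM. The mitochondrial Pck2 had 13.3 TPM in replicate 2 and 13.0 TPM in replicate 1. Pcx, pyruvate carboxylase, known from astrocytes, had 29.1 and 20.1 TPM, a ratio of 1.49-fold. Aldoc, also an astrocyte gene, was at 1.75-fold. Of the 31 of these genes with a mean of at least 50 expected counts it was the only one past 1.5-fold. Of all 14412 genes 3.46% were past this limit, so the count is near the share of all genes.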
